A study of Mus musculus with 24 samples.

Results

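The genes described here encode lysosomal proteins, in 3 classes: 29 hydrolases with their activator proteins, 8 proteins of the lysosomal membrane and 14 subunits of the vacuolar ATPase (V-ATPase). They were taken from the count tables by gene symbol, and all 51 listed symbols were found among 32719 measured genes. Each passed the filter on low counts, which 15599 genes passed in all. Gene expression was measured by poly-A RNA sequencing of primary cortical astrocytes, grown from newborn mouse pups whose insulin receptor gene, Insr, was floxed. Cells named IRKO had received an adenovirus for a fusion of Cre recombinase and green fluorescent protein (GFP), and cells named IRflox an adenovirus for GFP alone. All cells therefore carried the floxed allele and an adenovirus, and the loss of Insr and the presence of Cre cannot be told apart. The cells were used 5 days after infection, the titles give 14 days in vitro, and serum was withdrawn overnight before treatment. IRKO and IRflox cells were each given 100 nM insulin, 100 nM IGF-1 (insulin-like growth factor 1) or vehicle for 6 h, and 4 libraries were made for each of the 6 groups. The labels do not state that replicate libraries are separate cultures, so a p-value here reflects variation among the libraries alone, and that variation may be technical. The 24 libraries held 15429688 to 19010986 gene counts. IRKO vehicle replicate 1 was the library least like its group, with a chi-square of 5.79 to 6.86 per gene against its fellows, which were at 2.67 to 4.82 among themselves, and with 22.47% of reads outside genes, against 16.93% to 18.92% in the others. Pairs within the other groups were at 2.17 to 6.58. Without that library 35 members were lower and 1 higher with insulin in IRKO cells, in place of 36 and 1, and 39 lower and 1 higher with IGF-1, in place of 39 and 2. Under vehicle 4 were higher and 1 lower in IRKO than in IRflox cells without it, in place of 6 and 1. The calls lost were Atp6v0b with insulin and Smpd1 with IGF-1 in IRKO cells, and Ctsd and Manba between genotypes under vehicle. Among the IRflox vehicle libraries, replicate 3 had a chi-square of 5.956 and 6.576 per gene against replicates 1 and 2. Replicate 2 of that group had the largest share of reads outside genes of all 24 libraries, 23.18%.

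Levels are in CPM (counts scaled to the size of the library), and the 4 values of a group run from replicate 1 to replicate 4. Insr, the targeted gene, had 26.6, 29.6, 28.97 and 30.6 CPM in IRKO cells given insulin, 29.04, 29.6, 30.3 and 32.2 CPM in IRKO cells given IGF-1 and 39.7, 37.7, 40.5 and 43.7 CPM in IRKO cells given vehicle. IRflox cells had 52.6, 47.5, 50.2 and 48.1 CPM with insulin, 47.1, 49.2, 50.9 and 46.7 CPM with IGF-1 and 59.99, 66.8, 58.8 and 60.6 CPM with vehicle. Each IRKO library was below every IRflox library of the same treatment, and an Insr transcript remained in all of them. Among 13 astrocyte markers, 12 passed the filter, Gja1 and Aldh1l1 among them, and the connexin gene Gjb6 did not. The 15 markers of microglia, the resident macrophages of the brain, all passed, with a summed level of 1237 to 1752 CPM per library against 4029 to 4848 CPM for the astrocyte markers. The libraries are bulk samples, in which fewer cells of a type and less RNA per cell cannot be told apart.

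Lysosomes are acidic compartments in which proteins, glycans, lipids and nucleic acids from endocytosis and autophagy are broken down. The V-ATPase pumps protons into the lumen, with a V1 sector in the cytosol that binds and splits ATP and a V0 sector in the membrane through which protons pass, and the hydrolases work best at the low pH it makes. Membrane proteins shield the limiting membrane and carry ions and breakdown products out. Many of these genes are targets of the transcription factors TFEB, TFE3 and MITF, which bind a sequence known as the CLEAR element, built around the E-box CACGTG. Growth factor signalling through the kinase complex mTORC1, which itself assembles on the lysosome, holds TFEB and TFE3 in the cytosol. Inherited loss of most of the enzymes and transporters named here gives a lysosomal storage disease, many of them with disease of the brain.

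To show where the E-box CACGTG lies, promoter sequences were read for members on which the results turn. RefSeq windows (GRCm38.p6, 250 bases before to 50 bases after the start of the transcript, 300 bases) were at hand for 44 of the 51 genes, and Asah1, Ctsb, Atp6v0a2, Atp6v1b2, Atp6v1c1, Atp6v1g1 and Atp6v1h had none. The motifs searched were CACGTG and TCACGTGA, which contains it, and both read the same on either strand. A longer palindrome, with G before and C after TCACGTGA, was in the window of Cln3 and in no other of the 44, against 0.37% of all genes. TGTTTAC, a sequence bound by FOXO factors, was searched on both strands as well. In the sequences below, 5′ to 3′ on the strand of the gene, capitals mark TCACGTGA or, outside it, CACGTG. Mcoln1 (chr8:3500269-3500568, plus strand) and Clcn7 (chr17:25133141-25133440, plus strand, the first of its windows) fell with both ligands and each hold TCACGTGA and a further CACGTG. Naglu (chr11:101069844-101070143, plus strand) fell too and holds the short form. Ctns (chr11:73198970-73199269, minus strand) had the largest fall of the 51 and holds neither in this window or in its other one, and Atp6v1a (chr16:44139210-44139509, minus strand) holds TCACGTGA and was called in no comparison with vehicle.
Mcoln1: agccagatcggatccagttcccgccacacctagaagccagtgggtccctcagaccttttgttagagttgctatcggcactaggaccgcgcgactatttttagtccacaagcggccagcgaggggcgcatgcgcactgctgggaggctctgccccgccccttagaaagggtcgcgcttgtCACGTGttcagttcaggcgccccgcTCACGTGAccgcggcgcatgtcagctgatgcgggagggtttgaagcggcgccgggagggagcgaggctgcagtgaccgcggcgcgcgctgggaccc
Clcn7: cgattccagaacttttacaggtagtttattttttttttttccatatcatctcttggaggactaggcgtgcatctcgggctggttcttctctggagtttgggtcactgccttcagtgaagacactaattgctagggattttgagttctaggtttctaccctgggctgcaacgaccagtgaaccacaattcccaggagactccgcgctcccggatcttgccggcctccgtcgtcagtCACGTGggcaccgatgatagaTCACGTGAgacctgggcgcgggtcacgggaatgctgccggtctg
Naglu: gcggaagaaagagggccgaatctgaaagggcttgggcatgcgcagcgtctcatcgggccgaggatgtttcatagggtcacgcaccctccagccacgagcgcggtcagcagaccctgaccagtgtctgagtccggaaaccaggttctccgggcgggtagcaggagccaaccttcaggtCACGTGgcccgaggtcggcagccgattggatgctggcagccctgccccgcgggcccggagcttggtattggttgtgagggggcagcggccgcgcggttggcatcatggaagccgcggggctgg
Ctns: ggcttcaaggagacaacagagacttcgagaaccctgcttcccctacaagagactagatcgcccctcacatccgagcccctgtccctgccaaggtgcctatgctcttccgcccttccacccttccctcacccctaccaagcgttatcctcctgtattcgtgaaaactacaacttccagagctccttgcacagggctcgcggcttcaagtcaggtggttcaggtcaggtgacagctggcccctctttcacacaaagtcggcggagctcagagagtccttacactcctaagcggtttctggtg
Atp6v1a: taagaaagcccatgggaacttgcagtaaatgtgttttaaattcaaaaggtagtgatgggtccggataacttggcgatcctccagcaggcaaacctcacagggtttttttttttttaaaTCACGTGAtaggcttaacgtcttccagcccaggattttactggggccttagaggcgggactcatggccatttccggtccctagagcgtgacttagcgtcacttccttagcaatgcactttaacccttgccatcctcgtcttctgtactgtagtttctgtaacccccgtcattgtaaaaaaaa

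CACGTG was in the windows of 18 of the 44 genes, against 8.09% of all 27025 genes in the same table, and TCACGTGA in those of 9 genes, against 1.12%. The 18 genes were 10 of 27 hydrolases, 4 of 8 membrane proteins and 4 of 9 V-ATPase subunits, and the 9 genes were 3 of each class. TGTTTAC was found for none of the 44, against 4.05% of all genes. In IRflox cells the median log2 difference between insulin and vehicle was -0.24 for the 18 genes with CACGTG (range -0.61 to 0.034) and -0.12 for the 26 without it. For the 9 genes with TCACGTGA it was -0.23, and for the 35 without it -0.14. These are descriptions of letters in a window, and no test was made of them.

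Levels differed widely among the members. Per kilobase of exon, and averaged over the 24 libraries, the aspartic protease gene Ctsd had 759.9 CPM per kb and Psap, which encodes the precursor of the saposins, 690.5. Lamp1, the gene of a main glycoprotein of the lysosomal membrane, had 380.6 and the cysteine protease genes Ctsb and Ctsz 333.1 and 247.4. The lowest were Mcoln1 at 3.17, the heparan sulfate sulfamidase gene Sgsh at 2.52 and the beta-mannosidase gene Manba at 2.39. Subunit genes of the V-ATPase spanned a narrower range, from 84.7 CPM per kb for Atp6v1g1 to 8.97 for Atp6v1h. Some counts are uncertain because the library had no strand and exons overlap those of other measured genes: Ctsd shares 34.4% of its exon length with Gm49369 and Sgsh 21.6% with Card14, while Ctsa, Ctsb and Hexa share 12.8 to 17.4%.

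Most of the 51 genes were lower with either ligand in either genotype, by small amounts. Calls were made with edgeR's quasi-likelihood test where the p, adjusted over all 15599 genes by Benjamini-Hochberg, was under 0.05, and differences are log2 of ligand over vehicle. In IRKO cells insulin lowered 36 of 51 genes and raised 1, where 21.7% of all genes were called lower and 24.7% higher. IGF-1 in IRKO cells lowered 39 and raised 2, with 25.1% of all genes lower and 26.9% higher. In IRflox cells insulin lowered 32 and raised 3 (21.4% of all genes lower, 24.3% higher), and IGF-1 lowered 34 and raised 4 (24.4% lower, 26.4% higher). The share of members that fell was 70.6% and 76.5% in IRKO cells and 62.7% and 66.7% in IRflox cells, in the order insulin and IGF-1. The median log2 difference over the members was -0.17 and -0.20 in IRKO cells and -0.14 and -0.18 in IRflox cells in the same order, where the medians over all genes were 0.009, -0.001, 0.001 and -0.004.

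The falls were mostly smaller than 20%. Called and lower by 20% or more were 7 members with insulin and 12 with IGF-1 in IRKO cells, against 10.3% and 13.5% of all genes. In IRflox cells they were 7 members with insulin and 9 with IGF-1, against 10.5% and 13.2% of all genes. As shares of the 51 members these counts are 13.7%, 23.5%, 13.7% and 17.6%, near the share of all genes with insulin. In total 29 members were called lower in all 4 comparisons with vehicle: 18 hydrolases, 6 membrane proteins and 5 V-ATPase subunits. Over all genes 15.1% were, and both comparisons of a genotype share its vehicle libraries. Another 5 were called in none of the 4, all of them V-ATPase subunits, and 6 were called higher in at least 1. The matching shares of all genes were not counted, so these counts are descriptions only. In single comparisons with vehicle 1.96% to 7.84% of the members were higher, against 24.3% to 26.9% of all genes.

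**Figure D1:**
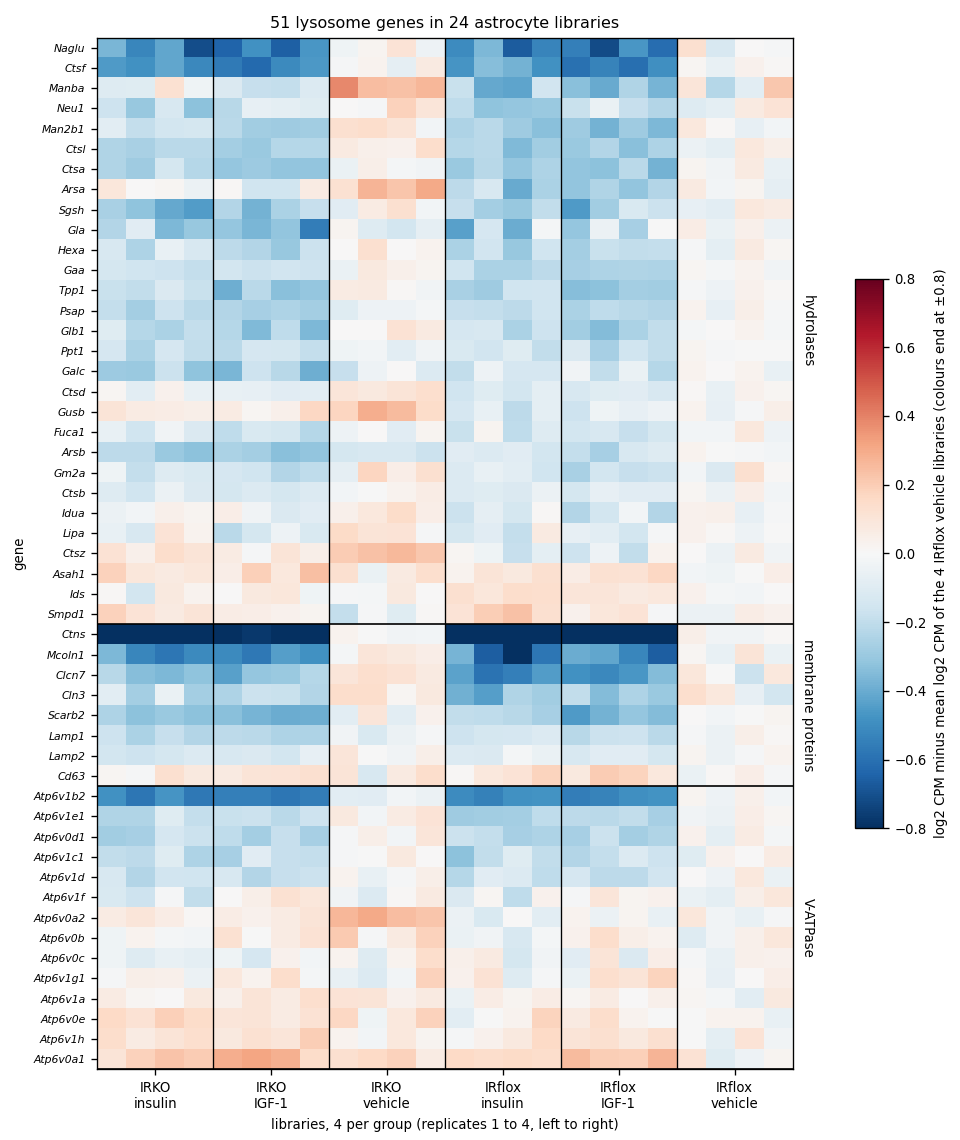
Heat map of the 51 genes (rows, by class) in the 24 libraries (columns, by group), coloured by log2 CPM minus the mean of the 4 IRflox vehicle libraries of that gene, with colours ending at 0.8 either side of 0. Most hydrolase and membrane protein rows are below 0 in the insulin and IGF-1 libraries of both genotypes, Ctns most of all, and the V-ATPase rows are mixed.

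Summed over a class, the hydrolases had 8287 to 8871 CPM in IRKO cells given insulin and 8318 to 8370 CPM with IGF-1, against 9324 to 9666 CPM with vehicle. In IRflox cells the sums were 8274 to 8601 CPM with insulin and 8164 to 8419 CPM with IGF-1, against 8967 to 9596 CPM with vehicle. Membrane protein genes summed to 2192 to 2291 and 2229 to 2265 CPM in IRKO cells given insulin and IGF-1, against 2457 to 2608 CPM with vehicle, and to 2288 to 2381 and 2219 to 2327 CPM in IRflox cells, against 2492 to 2580 CPM. The V-ATPase genes summed to 1683 to 1736 and 1716 to 1749 CPM with insulin and IGF-1 in IRKO cells, against 1834 to 1933 CPM with vehicle. In IRflox cells they were 1656 to 1701 and 1690 to 1749 CPM, against 1757 to 1834 CPM. For all 3 classes no ligand library reached the lowest vehicle library of its genotype. A few abundant genes carry the sums of the hydrolases and of the membrane proteins, so these say little about the rarer members. Levels of the V-ATPase genes were closer together, from 64.45 CPM (Atp6v0e) to 237.7 CPM (Atp6v1a) averaged over the 24 libraries. Their sum holds Atp6v1b2, which fell most of that class as given below, so a lower sum does not show that most subunit genes fell.

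Most hydrolases fell, by small amounts. Of the 29, insulin lowered 22 and raised 1 in IRKO cells (median log2 difference -0.18) and lowered 21 and raised 2 in IRflox cells (-0.17). IGF-1 lowered 26 and raised 1 in IRKO cells (-0.21) and lowered 22 and raised 1 in IRflox cells (-0.18). All 7 proteases fell with both ligands in IRKO cells and 6 of 7 with both in IRflox cells, where Ctsz did not pass. Of 12 glycosidases, 9 fell with insulin and 12 with IGF-1 in IRKO cells, and 10 with insulin in IRflox cells. Of 4 lipid hydrolases and thioesterases, 1 was lower and 1 higher with insulin in each genotype, near the shares of all genes. Those shares were 21.7% lower and 24.7% higher with insulin in IRKO cells, and 21.4% and 24.3% in IRflox cells. With IGF-1 they were 25.1% and 26.9% in IRKO cells and 24.4% and 26.4% in IRflox cells.

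Among the proteases, Ctsf (chromosome 19, 4855130 to 4860918, plus strand; GRCm38, GENCODE M21), which encodes the cysteine protease cathepsin F, changed most. It had 39.8, 39.00, 40.8 and 38.1 CPM in IRKO cells given insulin and 36.9, 35.5, 38.2 and 39.6 CPM with IGF-1, against 54.2, 55.5, 51.9 and 57.3 CPM with vehicle. Its levels in IRflox cells were 39.3, 42.95, 41.95 and 38.96 CPM with insulin and 36.1, 37.7, 35.9 and 38.8 CPM with IGF-1, against 55.1, 52.4, 55.8 and 54.8 CPM with vehicle. The ligand libraries lay below the vehicle libraries of their genotype without overlap. The log2 differences were -0.47 (SE 0.05) and -0.54 (SE 0.051) in IRKO cells and -0.42 (SE 0.05) and -0.56 (SE 0.051) in IRflox cells, with edgeR adjusted p from 2.63e-12 (IGF-1, IRflox) to 4.11e-09 (insulin, IRflox).

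Ctsl encodes cathepsin L, another cysteine protease. It had 287, 284, 293 and 292 CPM with insulin and 281, 277, 289 and 289.6 CPM with IGF-1 in IRKO cells, against 357, 349, 348 and 374 CPM with vehicle. IRflox cells had 290.0, 292, 266 and 279.9 CPM with insulin and 277, 288, 269 and 286 CPM with IGF-1, against 329, 321, 359.5 and 351 CPM with vehicle. Ctsa, the gene of the carboxypeptidase that also protects beta-galactosidase and neuraminidase, had 314, 304, 336 and 316 CPM with insulin and 299, 303, 298 and 298 CPM with IGF-1 in IRKO cells, against 357, 382, 367 and 364 CPM with vehicle. In IRflox cells Ctsa had 302, 318, 299 and 312 CPM with insulin and 298, 295, 319 and 286 CPM with IGF-1, against 376, 363, 389 and 355 CPM with vehicle. Both genes were lower in each ligand library than in each vehicle library of the genotype. Ctsl changed by -0.31 and -0.33 in IRKO cells and by -0.27 and -0.28 in IRflox cells with insulin and IGF-1, and Ctsa by -0.21, -0.30, -0.27 and -0.31 in the same order (SE 0.038 for insulin in IRflox cells). With insulin in IRKO and IRflox cells the differences were smaller for Ctsd, at -0.13 and -0.12, for Ctsb, at -0.12 and -0.092, and for Ctsz, at -0.13 and -0.069. The call of Ctsb in IRflox cells was lost without vehicle replicate 3 (edgeR adjusted p = 0.0696 with insulin, 0.0653 with IGF-1). Tpp1, a peptidase gene mutated in a form of neuronal ceroid lipofuscinosis, fell in all 4 comparisons, with differences between -0.20 (insulin, IRKO) and -0.34 (IGF-1, IRKO).

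Of the glycosidases, Naglu (chromosome 11, 101070012 to 101077672, plus strand), whose enzyme removes N-acetylglucosamine from heparan sulfate, changed most. Its level was 42.5, 38.2, 41.2 and 33.6 CPM in IRKO cells given insulin and 35.2, 39.2, 34.9 and 39.8 CPM with IGF-1, against 53.7, 55.7, 59.1 and 53.2 CPM with vehicle. For IRflox cells the levels were 38.6, 42.7, 34.6 and 38.1 CPM with insulin and 37.5, 33.5, 39.7 and 36.04 CPM with IGF-1, against 59.99, 50.2, 55.1 and 54.6 CPM with vehicle. Each ligand group lay wholly below the vehicle group. The differences were -0.51 (SE 0.067) and -0.57 (SE 0.067) in IRKO cells and -0.51 (SE 0.067) and -0.59 (SE 0.067) in IRflox cells, with an edgeR adjusted p of 2.83e-08 for the insulin comparison in IRflox cells.

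Gaa, the acid alpha-glucosidase gene whose enzyme breaks down glycogen, had 179, 176, 176 and 173 CPM with insulin and 178, 175, 177 and 175 CPM with IGF-1 in IRKO cells, against 190.0, 208, 202 and 199.6 CPM with vehicle. In IRflox cells Gaa had 176, 165, 165 and 171 CPM and 164, 166, 167 and 166 CPM with insulin and IGF-1, against 199, 194, 200.4 and 194 CPM with vehicle. Man2b1, the alpha-mannosidase gene, had 86.7, 80.6, 83.03 and 83.5 CPM and 79.3, 75.8, 75.6 and 75.9 CPM with insulin and IGF-1 in IRKO cells, against 100.4, 101, 98.8 and 90.8 CPM with vehicle. Neither gene's ligand libraries reached the vehicle libraries in IRKO cells. In IRflox cells Man2b1 had 77.5, 79.1, 75.4 and 72.98 CPM with insulin and 75.5, 70.8, 75.5 and 71.6 CPM with IGF-1, against 97.4, 92.6, 87.8 and 90.6 CPM with vehicle, again without overlap. Gaa changed by -0.22 (SE 0.034) and Man2b1 by -0.27 (SE 0.043) with insulin in IRflox cells, and by -0.19 and -0.23 in IRKO cells. Other glycosidase genes called in all 4 comparisons were Glb1 (beta-galactosidase), Hexa (the alpha subunit of beta-hexosaminidase), Manba and Neu1 (neuraminidase), between -0.17 (Neu1, IGF-1, IRflox) and -0.43 (Manba, IGF-1, IRKO). The Neu1 call with IGF-1 in IRflox cells was lost without vehicle replicate 3 (edgeR adjusted p = 0.0551) or 4 (0.0749).

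The sulfatase genes Arsa and Arsb and the sulfamidase gene Sgsh fell in all 4 comparisons, with Arsa at -0.21, -0.29, -0.25 and -0.28 with insulin and IGF-1 in IRKO cells and then in IRflox cells. The Sgsh calls in IRflox cells were lost without vehicle replicate 3 for insulin (edgeR adjusted p = 0.0627) and without IGF-1 replicate 1 for IGF-1 (0.0623). Both genes of activator proteins that present lipids to the enzymes, Psap and Gm2a, fell with both ligands in IRKO cells. In IRflox cells Psap fell with both and Gm2a with IGF-1 only, at -0.11 (SE 0.047) with insulin (edgeR adjusted p = 0.0593). The difference between the ligands for Gm2a in IRflox cells was 0.088 (SE 0.047) and did not pass (edgeR adjusted p = 0.419).

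A small number of hydrolases went the other way. Smpd1, the acid sphingomyelinase gene, which makes ceramide, had 123, 117, 114 and 116 CPM in IRKO cells given insulin and 113, 112, 110.5 and 109.8 CPM with IGF-1, against 94.8, 108, 101 and 109 CPM with vehicle. The IRflox libraries had 116, 124, 127 and 118 CPM with insulin and 110.4, 115, 117 and 107 CPM with IGF-1, against 105, 105, 112 and 110.4 CPM with vehicle. All insulin libraries were above all vehicle libraries, while the IGF-1 libraries overlapped the vehicle libraries in IRflox cells. Smpd1 rose with insulin by 0.19 (SE 0.042) in IRKO cells (edgeR adjusted p = 0.000305) and by 0.17 (SE 0.043) in IRflox cells (0.00138). With IGF-1 it rose by 0.11 (SE 0.043) in IRKO cells (edgeR adjusted p = 0.0255), a call lost without vehicle replicate 1 (0.205) or 3 (0.0763) or IGF-1 replicate 1 (0.0684), 2 (0.0852) or 3 (0.0541), and was at 0.057 (SE 0.043) in IRflox cells (0.278).

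Ids, the iduronate sulfatase gene on the X chromosome, had 84.7, 75.7, 88.6 and 85.8 CPM in IRKO cells given insulin and 84.03, 88.6, 89.5 and 82.1 CPM with IGF-1, against 83.4, 83.05, 88.8 and 84.4 CPM with vehicle. Levels in IRflox cells were 91.95, 89.6, 92.7 and 92.2 CPM with insulin and 89.8, 89.7, 88.3 and 89.1 CPM with IGF-1, against 86.2, 83.2, 82.6 and 84.04 CPM with vehicle. In IRflox cells all ligand libraries were above all vehicle libraries, and in IRKO cells they overlapped. Ids was called only with insulin in IRflox cells, at 0.13 (SE 0.042, edgeR adjusted p = 0.0144), and lost that call without vehicle replicate 2 (0.0515) or insulin replicate 1 (0.074), 3 (0.0568) or 4 (0.0543). The difference of its insulin response between IRKO and IRflox cells was -0.15 (SE 0.06) and did not pass (edgeR adjusted p = 0.884). Asah1, the acid ceramidase gene, was called higher with IGF-1 in IRflox cells, at 0.11 (SE 0.043, edgeR adjusted p = 0.0238), and not without vehicle replicate 1 (0.0897) or 2 (0.0723) or IGF-1 replicate 4 (0.123).

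**Figure D2:**
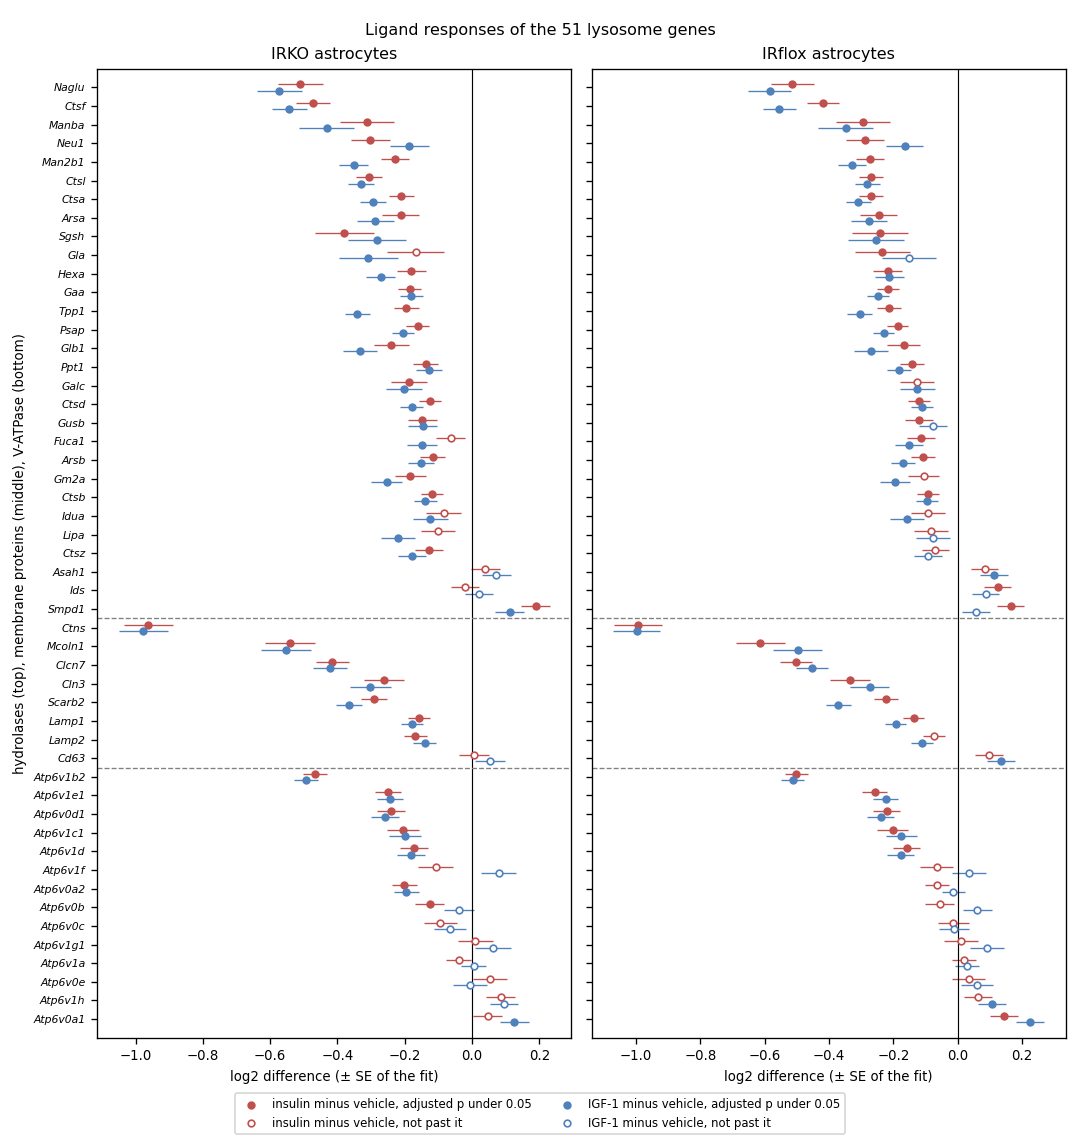
Log2 difference from vehicle of each of the 51 genes in IRKO cells (left) and IRflox cells (right), for insulin and IGF-1; points are the fitted difference, bars its SE, and filled points had an edgeR adjusted p under 0.05. Ctns lies farthest below 0 in both panels, and the points of Mcoln1, Clcn7, Naglu, Ctsf and Atp6v1b2 are filled and below 0 for both ligands.

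Most membrane protein genes fell, and Ctns fell more than any other of the 51 genes in all 4 comparisons. Of the 8, insulin lowered 7 in IRKO cells and 6 in IRflox cells and raised none. IGF-1 lowered 7 in each genotype and raised Cd63 in IRflox cells. Over these comparisons 21.4% to 25.1% of all genes were lower and 24.3% to 26.9% higher. The class medians were -0.28 and -0.33 in IRKO cells and -0.28 and -0.32 in IRflox cells with insulin and IGF-1. All 3 channel and transporter genes, Ctns, Mcoln1 and Clcn7, fell by 20% or more in every comparison with vehicle, and no library left out in turn changed those calls.

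Ctns (chromosome 11, 73183596 to 73199042, minus strand) encodes cystinosin, the exporter of cystine whose loss causes cystinosis. It had 15.3, 17.7, 17.01 and 18.9 CPM in IRKO cells given insulin and 16.2, 19.7, 16.1 and 16.2 CPM with IGF-1, against 34.3, 33.6, 33.1 and 33.2 CPM with vehicle. It had, in IRflox cells, 18.5, 17.1, 16.6 and 15.4 CPM with insulin and 15.5, 17.4, 18.8 and 15.6 CPM with IGF-1, against 34.7, 33.01, 33.02 and 33.9 CPM with vehicle. The lowest vehicle library was far above the highest ligand library in each genotype. Ctns stood at 51.4% and 50.8% of the vehicle level with insulin and IGF-1 in IRKO cells and at 50.2% and 50.05% in IRflox cells. The log2 differences were -0.96 (SE 0.073) and -0.98 (SE 0.073) in IRKO cells and -0.995 (SE 0.074) and -0.999 (SE 0.073) in IRflox cells, with edgeR adjusted p from 4.64e-15 (IGF-1, IRflox) to 1.82e-14 (insulin, IRKO).

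Mcoln1 (chromosome 8, 3500457 to 3515232, plus strand) encodes mucolipin 1, the channel that releases calcium from lysosomes. Its level was 23.2, 20.8, 19.98 and 20.98 CPM in IRKO cells given insulin and 21.01, 20.1, 21.96 and 21.3 CPM with IGF-1, against 29.6, 31.9, 31.5 and 30.9 CPM with vehicle. IRflox cells had 23.02, 18.9, 16.2 and 19.99 CPM with insulin and 22.7, 22.4, 20.8 and 18.9 CPM with IGF-1, against 30.1, 28.7, 32.01 and 28.7 CPM with vehicle. The groups did not overlap, and the spread was widest in the insulin libraries of IRflox cells. The differences were -0.54 (SE 0.074) and -0.55 (SE 0.074) in IRKO cells and -0.61 (SE 0.076) and -0.50 (SE 0.075) in IRflox cells, with an edgeR adjusted p of 7.61e-09 for insulin in IRflox cells.

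Clcn7 (chromosome 17, 25133391 to 25162104, plus strand) encodes a chloride and proton exchanger that is also needed for bone resorption. It had 108, 98.96, 97.6 and 100.4 CPM in IRKO cells given insulin and 92.9, 101, 102 and 107 CPM with IGF-1, against 134, 138, 136 and 132 CPM with vehicle. Its levels in IRflox cells were 93.2, 83.4, 85.9 and 92.1 CPM with insulin and 89.7, 87.9, 90.9 and 98.7 CPM with IGF-1, against 134, 125, 111 and 133 CPM with vehicle. The ligand groups lay below the vehicle groups without overlap, though vehicle replicate 3 of IRflox was lower than its fellows. The differences were -0.42 (SE 0.049) and -0.42 (SE 0.05) in IRKO cells and -0.50 (SE 0.05) and -0.45 (SE 0.05) in IRflox cells, with an edgeR adjusted p of 4.24e-11 for insulin in IRflox cells.

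Cln3, a membrane protein gene mutated in juvenile neuronal ceroid lipofuscinosis, changed by -0.26, -0.30, -0.34 and -0.27 with insulin and IGF-1 in IRKO cells and then in IRflox cells. Scarb2 encodes LIMP-2, which carries glucocerebrosidase to lysosomes, and had 247, 233, 239 and 233 CPM in IRKO cells given insulin and 232, 227, 223 and 223 CPM with IGF-1, against 276, 314, 276 and 299.7 CPM with vehicle. In IRflox cells Scarb2 had 256, 254, 252 and 243 CPM with insulin and 214, 225, 237 and 231 CPM with IGF-1, against 294, 288, 292 and 298 CPM with vehicle. It was lower with each ligand without overlap, with differences of -0.29 and -0.37 in IRKO cells and -0.22 and -0.37 in IRflox cells. Lamp1 fell in all 4 comparisons, with differences between -0.14 (insulin, IRflox) and -0.19 (IGF-1, IRflox). Lamp2, the receptor gene of chaperone-mediated autophagy, fell in 3 and was at -0.074 (SE 0.034) with insulin in IRflox cells (edgeR adjusted p = 0.0775), where it passed without vehicle replicate 2 (0.0349) or insulin replicate 3 (0.0206). Cd63, a tetraspanin gene of late endosomes and exosomes, was called higher with IGF-1 in IRflox cells at 0.14 (SE 0.044, edgeR adjusted p = 0.00954), and not without vehicle replicate 1 (0.0634) or IGF-1 replicate 2 (0.0505).

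**Figure D3:**
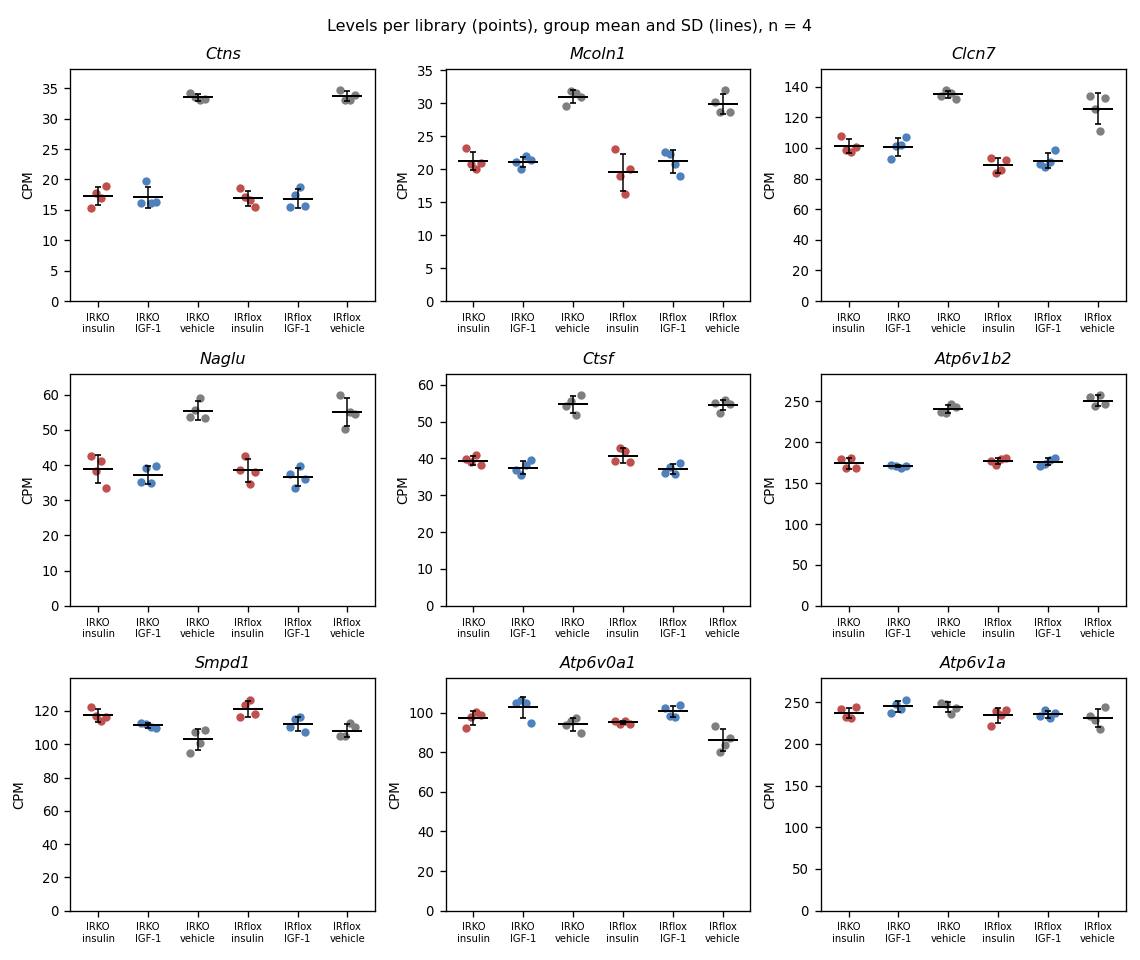
CPM of 9 genes in each library (points) of the 6 groups, with the mean and SD of the 4 libraries (lines). For Ctns, Mcoln1, Clcn7, Naglu, Ctsf and Atp6v1b2 the insulin and IGF-1 points lie below the vehicle points of both genotypes, Smpd1 is higher with insulin, Atp6v0a1 is higher with both ligands in IRflox cells, and Atp6v1a overlaps between treatments.

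V-ATPase subunit genes split. Of the 14, insulin lowered 7 in IRKO cells and 5 in IRflox cells, where it also raised 1, and IGF-1 lowered 6 and raised 1 in IRKO cells and lowered 5 and raised 2 in IRflox cells. The shares lower were 50% and 42.9% in IRKO cells and 35.7% with each ligand in IRflox cells, against 21.4% to 25.1% of all genes. The shares higher were 0% and 7.14% in IRKO cells and 7.14% and 14.3% in IRflox cells, against 24.3% to 26.9% of all genes. The medians were -0.12 and -0.052 in IRKO cells and -0.06 and 0.009 in IRflox cells with insulin and IGF-1, nearer to 0 than those of the other classes. Only 1 subunit gene, Atp6v1b2, fell by 20% or more. In the V1 sector 4 of 8 genes fell in every comparison with vehicle, the same ones each time (Atp6v1b2, Atp6v1c1, Atp6v1d and Atp6v1e1). In the V0 sector 3 of 6 fell with insulin and 2 with IGF-1 in IRKO cells, against 1 with each ligand in IRflox cells. Counts out of 6 are too small to set against the shares of all genes. No member passed in the comparison of responses between genotypes, as given below.

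Atp6v1b2 (chromosome 8, 69088646 to 69113711, plus strand) encodes the brain type of the B subunit, which together with the A subunit forms the ring that binds ATP. It had 179, 168, 181 and 168 CPM in IRKO cells given insulin and 172, 172, 168 and 171 CPM with IGF-1, against 236, 236, 247 and 243 CPM with vehicle. For IRflox cells the levels were 177, 172, 179.5 and 180.2 CPM with insulin and 171, 173, 179 and 180.3 CPM with IGF-1, against 255, 244, 258 and 246 CPM with vehicle. No ligand library came near the vehicle libraries. The differences were -0.47 (SE 0.035) and -0.49 (SE 0.035) in IRKO cells and -0.50 (SE 0.035) and -0.51 (SE 0.035) in IRflox cells, with an edgeR adjusted p of 1.41e-15 for insulin in IRflox cells.

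Its partner in the ring, the A subunit gene Atp6v1a, had 241, 233, 231 and 244 CPM in IRKO cells given insulin and 237, 247, 241 and 253 CPM with IGF-1, against 249, 248, 236 and 242 CPM with vehicle. The IRflox libraries had 222, 239.9, 234 and 240.2 CPM with insulin and 234, 241, 231 and 237 CPM with IGF-1, against 233, 228, 218 and 244 CPM with vehicle. The groups overlapped in every comparison with vehicle. Its differences were -0.040 (SE 0.037) and 0.005 (SE 0.037) in IRKO cells and 0.020 (SE 0.037) and 0.030 (SE 0.037) in IRflox cells, none of which passed. Atp6v1a was set beside Atp6v1b2 after its values were seen. The proteolipid gene Atp6v0c, which lines the proton path, Atp6v0e, Atp6v1f and Atp6v1g1 were likewise called in none of the 4.

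The stalk subunit gene Atp6v1e1 had 123, 124, 136 and 128 CPM with insulin and 128, 129, 126 and 130.0 CPM with IGF-1 in IRKO cells, against 154, 143, 153 and 158 CPM with vehicle. IRflox cells had 119.5, 120.4, 121 and 127 CPM with insulin and 126, 125, 127 and 121 CPM with IGF-1, against 143, 141, 151 and 148 CPM with vehicle. Atp6v0d1, whose protein joins the central stalk to V0, had 89.3, 89.8, 98.4 and 95.8 CPM with insulin and 93.8, 89.4, 95.3 and 90.1 CPM with IGF-1 in IRKO cells, against 107, 112, 106 and 116 CPM with vehicle. In IRflox cells Atp6v0d1 had 96.1, 94.8, 89.8 and 91.2 CPM with insulin and 89.96, 95.9, 89.7 and 91.4 CPM with IGF-1, against 111, 102, 113 and 107 CPM with vehicle. For both genes the ligand libraries were below the vehicle libraries without overlap, with differences of -0.26 (SE 0.039) and -0.22 (SE 0.042) on the log2 scale with insulin in IRflox cells. Atp6v1c1, whose C subunit is lost when V1 comes off V0, changed by -0.21, -0.20, -0.20 and -0.18 with insulin and IGF-1 in IRKO cells and then in IRflox cells. Its level was 65.8, 65.2, 70.5 and 63.6 CPM with insulin and 62.7, 70.9, 66.4 and 66.2 CPM with IGF-1 in IRKO cells, against 74.9, 75.3, 79.7 and 75.7 CPM with vehicle. In IRflox cells Atp6v1c1 had 60.1, 65.96, 70.5 and 65.97 CPM with insulin and 64.1, 66.3, 69.9 and 67.3 CPM with IGF-1, against 70.5, 77.2, 75.5 and 78.96 CPM with vehicle. Every library with a ligand was below every vehicle library of its genotype, the closest being insulin replicate 3 of IRflox at 70.47 CPM and its vehicle replicate 1 at 70.50 CPM.

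The a subunits of V0 differ in the membranes they reach. Atp6v0a1 had 92.2, 97.5, 100.5 and 98.8 CPM in IRKO cells given insulin and 105, 107, 105 and 94.9 CPM with IGF-1, against 93.6, 95.8, 97.4 and 89.8 CPM with vehicle. Levels in IRflox cells were 95.9, 94.4, 95.5 and 94.4 CPM with insulin and 102, 98.4, 97.8 and 104 CPM with IGF-1, against 93.00, 80.1, 83.5 and 87.2 CPM with vehicle. The groups overlapped in IRKO cells and not in IRflox cells, where vehicle replicate 2 was lowest. Atp6v0a1 rose in IRflox cells by 0.15 (SE 0.044) with insulin (edgeR adjusted p = 0.00672) and 0.23 (SE 0.044) with IGF-1 (3.73e-05). The insulin call was lost without vehicle replicate 2 (0.0713). In IRKO cells it was at 0.046 (SE 0.044) with insulin (edgeR adjusted p = 0.409) and 0.13 (SE 0.044) with IGF-1 (0.0147), and the second call was lost without vehicle replicate 4 (0.104) or IGF-1 replicate 1 (0.0552), 2 (0.0974) or 3 (0.0638).

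Atp6v0a2 (chromosome 5, 124628576 to 124724455, plus strand), the a subunit gene linked to the Golgi and endosomes and mutated in a form of cutis laxa, had 202, 206, 201 and 194 CPM in IRKO cells given insulin and 200.4, 197, 202 and 207 CPM with IGF-1, against 232, 238, 229 and 225 CPM with vehicle. It had, in IRflox cells, 187, 177, 193 and 182 CPM with insulin and 197, 187, 196 and 185 CPM with IGF-1, against 206, 189, 185 and 191 CPM with vehicle. The groups were apart in IRKO cells and overlapped in IRflox cells. Atp6v0a2 fell in IRKO cells, with differences of -0.20 (SE 0.037) for insulin (edgeR adjusted p = 1.72e-05) and -0.20 (SE 0.037) for IGF-1 (2.08e-05), and was at -0.063 (SE 0.037) and -0.013 (SE 0.037) in IRflox cells (0.17 and 0.797). The difference of the responses between genotypes was -0.14 (SE 0.052) for insulin and -0.18 (SE 0.052) for IGF-1, and neither passed (edgeR adjusted p = 0.884 and 0.601). Atp6v0b was called lower with insulin in IRKO cells (-0.13, SE 0.044) and in no other comparison with vehicle, a call lost without vehicle replicate 1 (edgeR adjusted p = 0.058). Atp6v1h, a regulatory V1 subunit gene, was called higher with IGF-1 in IRflox cells (0.11, SE 0.043, edgeR adjusted p = 0.0363), and not without any 1 of vehicle replicates 1, 2 or 4 or IGF-1 replicates 1, 2 or 4 (0.0843 to 0.162).

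Whether the receptor knockout changed the responses was asked by the difference of each ligand's effect between IRKO and IRflox cells. No member passed for insulin or for IGF-1, nor did any of the 15599 genes (0% of all genes in both comparisons, edgeR). Over all genes, 838 had an unadjusted p under 0.05 for insulin and 822 for IGF-1, and DESeq2 called 0 and 2 genes. The members' differences of response ran from -0.15 to 0.088 for insulin and from -0.18 to 0.066 for IGF-1. Of the members that fell with insulin, 30 were called in both genotypes, which is 83.3% of the 36 in IRKO cells and 93.8% of the 32 in IRflox cells. With IGF-1 it was 34, which is 87.2% of the 39 in IRKO cells and 100% of the 34 in IRflox cells. Across the 51 genes the insulin differences of IRKO and IRflox cells had a Pearson r of 0.963 and a Spearman rho of 0.927, and the IGF-1 differences 0.97 and 0.927. Over all 15599 genes, 76.9% of those lower with insulin in IRKO cells and 78.1% of those in IRflox cells were lower in both, and 78.5% and 80.8% with IGF-1, with r of 0.767 and 0.812 and rho of 0.785 and 0.823 for insulin and IGF-1. The 51 points share the same libraries, so these values are descriptions and carry no test.

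**Figure D4:**
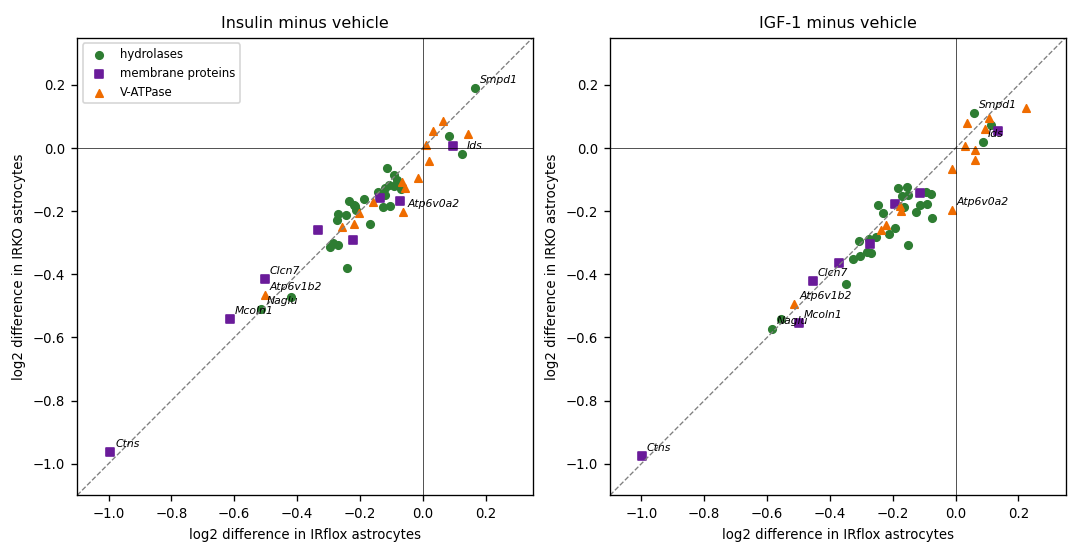
Log2 difference from vehicle of each of the 51 genes in IRKO cells (y axis) and IRflox cells (x axis), for insulin and for IGF-1, coloured by class, with a dashed line of equality. The genes lie along that line in both panels, with Ctns at the lower end near -1 on both axes.

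Insulin and IGF-1 at the same dose differed little for these genes. Insulin minus IGF-1 in IRKO cells was called for 1 member higher and 1 lower, where 1.06% of all genes were higher and 1.61% lower. Tpp1 had 201, 198, 209.5 and 201 CPM with insulin and 173, 195, 180.3 and 183 CPM with IGF-1 in IRKO cells, a difference of 0.15 (SE 0.039, edgeR adjusted p = 0.0286). Atp6v1f, a V1 stalk subunit gene, had 60.2, 58.4, 65.1 and 57.2 CPM with insulin and 65.7, 67.7, 71.2 and 69.7 CPM with IGF-1, a difference of -0.19 (SE 0.052, 0.0396). Neither gene's libraries overlapped between the ligands. The Tpp1 call was lost without any 1 of insulin or IGF-1 replicates 1, 3 or 4 (edgeR adjusted p 0.0578 to 0.186), and that of Atp6v1f without any 1 of insulin replicates 1, 2 or 4 or IGF-1 replicates 2, 3 or 4 (0.0655 to 0.118). In IRflox cells 1 member was higher with insulin and 0 were lower, where 1.49% of all genes were higher and 1.1% lower. It was Scarb2, which differed by 0.15 (SE 0.039, edgeR adjusted p = 0.0247), with all insulin libraries above all IGF-1 libraries. That call was lost without any 1 of insulin replicates 1, 2 or 3 or IGF-1 replicates 1 or 2 (0.055 to 0.126).

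Most members were not called between IRKO and IRflox cells under the same treatment. Under vehicle 6 were higher and 1 lower in IRKO cells (11.8% and 1.96% of the members), where 3.76% of all genes were higher and 4.1% lower. Given insulin, 7 were higher and 2 lower (13.7% and 3.92% of the members, 4.94% and 5.53% of all genes). Given IGF-1, 3 were higher and 1 lower (5.88% and 1.96% of the members, 3.62% and 3.15% of all genes). Ctsz, Gusb and Arsa were higher and Arsb was lower in all 3. Ctsz, the gene of cathepsin Z, a carboxypeptidase, had 399.5, 408, 414 and 403 CPM in IRKO cells and 347, 336, 364 and 339.5 CPM in IRflox cells under vehicle, without overlap. The difference was 0.23 (SE 0.042, edgeR adjusted p = 0.000255), and 0.17 and 0.14 given insulin and IGF-1. Atp6v0a2 was higher in IRKO cells by 0.26 (SE 0.037) under vehicle (4.87e-06), on the levels given above, and by 0.12 given insulin.

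Gusb, the beta-glucuronidase gene, had 99.7, 108, 105 and 97.8 CPM in IRKO cells and 90.2, 84.2, 87.8 and 91.3 CPM in IRflox cells under vehicle, a difference of 0.22 (SE 0.043, edgeR adjusted p = 0.000661). Arsa, the arylsulfatase gene mutated in metachromatic leukodystrophy, had 56.8, 62.99, 60.8 and 64.3 CPM in IRKO cells and 54.8, 51.4, 53.1 and 49.7 CPM in IRflox cells, a difference of 0.23 (SE 0.055, 0.00543). Both were higher in each IRKO library than in each IRflox library. Arsb, another sulfatase gene, had 155, 157, 157 and 152 CPM in IRKO cells and 175, 171, 171 and 169 CPM in IRflox cells, a difference of -0.14 (SE 0.037, 0.0102), again without overlap. Manba (0.27) and Ctsd (0.10) were called higher under vehicle too. The Manba call was lost without IRKO vehicle replicate 1 (0.101) or IRflox vehicle replicate 2 (0.138) or 3 (0.106), and that of Ctsd without any 1 of 7 of the 8 libraries, the exception being IRflox replicate 3 (0.0558 to 0.161).

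Given insulin, Clcn7 was higher in IRKO cells by 0.19 (SE 0.051, edgeR adjusted p = 0.0103), with 108, 98.96, 97.6 and 100.4 CPM in IRKO cells against 93.2, 83.4, 85.9 and 92.1 CPM in IRflox cells, and lost the call without IRKO replicate 1 (0.0697) or IRflox replicate 2 (0.0539). Man2b1 (0.13) and Manba (0.26) were higher and Ids (-0.13) lower, and these calls, like that of Atp6v0a2, were each lost without 5 or 6 of the 8 libraries in turn. Ctsz lost its call given insulin without IRflox replicate 3 (edgeR adjusted p = 0.0545). Given IGF-1 none of the 4 calls held throughout: Arsa was lost without IRKO replicate 1 (0.0685) or 4 (0.0952), and Ctsz, Gusb and Arsb each without 5 or 6 of the 8 libraries (0.05003 to 0.183).

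Microglia markers moved with several of these results. In IRKO against IRflox cells, 12 of 15 microglia markers were called higher under vehicle (median log2 difference 0.26), 9 given insulin (0.22) and 7 given IGF-1 (0.18). Over all genes 3.76%, 4.94% and 3.62% were. The summed level of the markers was 1703 to 1752 CPM in IRKO cells and 1393 to 1486 CPM in IRflox cells under vehicle. With the ligands, 12 of 15 fell with insulin (median -0.22) and 11 with IGF-1 (-0.24) in IRKO cells, and 9 (-0.17) and 6 (-0.15) in IRflox cells. Over all genes 21.7% and 25.1% fell in IRKO cells and 21.4% and 24.4% in IRflox cells. The marker sums were 1493 to 1526 CPM and 1469 to 1560 CPM in IRKO cells given insulin and IGF-1, and 1237 to 1345 CPM and 1279 to 1351 CPM in IRflox cells. Csf1r, the receptor gene that microglia need to survive, had 308 to 341 CPM in IRKO cells and 256 to 273 CPM in IRflox cells under vehicle, and Tmem119, found in microglia of the brain, had 6.42 to 7.94 CPM in IRKO cells and 4.41 to 6.20 CPM in IRflox cells. No microglia marker was at 0 in these groups. Markers of other cells also differed under vehicle, and are named here after their values were seen. Of the astrocyte markers, Ndrg2 (0.239), Aldh1l1 (0.136) and Slc1a3 (0.131) were called higher in IRKO cells and Gja1 (-0.161) lower. The fibroblast and mural markers Lum (-1.44) and Dcn (-1.05) and the neuron marker Stmn2 (-0.158) were lower. Other tested markers of these lists were not called. The part of such cells in the differences between genotypes was not tested.

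**Figure D5:**
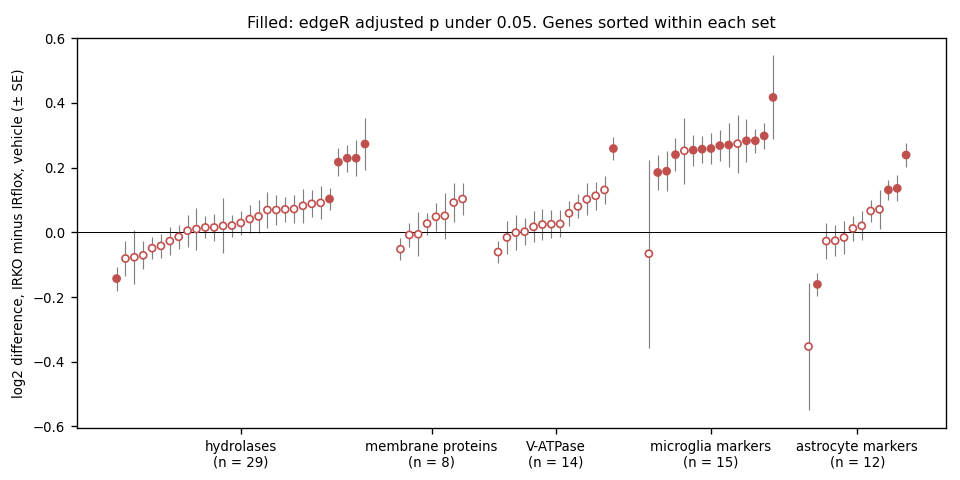
Log2 difference of IRKO from IRflox cells under vehicle for each gene of the 3 lysosomal classes and for 15 microglia and 12 astrocyte markers; points are the fitted difference, bars its SE, and filled points had an edgeR adjusted p under 0.05. Most microglia markers lie above 0, and most lysosomal genes lie near 0.

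With the mean log2 level of the 15 microglia markers in each library as a covariate, all calls of members between IRKO and IRflox cells were lost (0 higher and 0 lower under each treatment). The call of Insr itself under vehicle was lost in that fit as well (-0.47, edgeR adjusted p = 0.0974). The covariate moves with the groups, and the SE of Ctns for insulin in IRflox cells was 0.134 with it, against 0.074 without it. With ligand, 7 members were called lower for insulin and 9 for IGF-1 in IRKO cells, and 14 and 24 in IRflox cells. Atp6v1b2, Clcn7, Ctns, Ctsf, Ctsl and Scarb2 were lower in all 4 comparisons of that fit. For insulin in IRflox cells Ctns stood at -0.95, Mcoln1 at -0.47, Clcn7 at -0.45, Atp6v1b2 at -0.43 and Ctsf at -0.41, while Naglu was at -0.22 (edgeR adjusted p = 0.135). The part of microglial RNA in the smaller differences was not tested beyond this fit.

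Genes that control or surround this set were measured as well. Of 10 genes of lysosomal gene control, 6 fell with insulin and 6 with IGF-1 in IRKO cells, 6 and 7 fell in IRflox cells, and none rose. Among all genes 21.7% and 25.1% fell in IRKO cells and 21.4% and 24.4% in IRflox cells, and 24.3% to 26.9% rose. Rragd, the gene of a Rag GTPase that recruits mTORC1 and TFEB to the lysosome, had 47.6, 39.99, 49.1 and 44.2 CPM with insulin and 42.1, 43.5, 44.4 and 40.9 CPM with IGF-1 in IRKO cells, against 93.4, 89.3, 92.9 and 87.9 CPM with vehicle. IRflox cells had 45.4, 54.5, 50.5 and 47.3 CPM with insulin and 40.8, 41.4, 46.5 and 44.9 CPM with IGF-1, against 96.05, 91.6, 89.9 and 94.9 CPM with vehicle. Its difference with insulin in IRflox cells was -0.91 (SE 0.054), and the groups did not overlap. Flcn, whose protein acts on that GTPase, changed by -0.60 and -0.65 with insulin in IRKO and IRflox cells, and its partners Fnip1 by -0.74 and -0.65 and Fnip2 by -0.31 and -0.36. Of the transcription factor genes themselves, Tfeb and Tfe3 did not pass with insulin. Tfeb was at 0.026 (SE 0.091) in IRKO cells and -0.18 (SE 0.093) in IRflox cells (edgeR adjusted p = 0.841 and 0.124), and Tfe3 at 0.061 (SE 0.041) and -0.035 (SE 0.041) (0.237 and 0.524). Mitf was at -0.21 (SE 0.098) in IRKO cells and fell in IRflox cells, at -0.30 (SE 0.102) (0.0743 and 0.0137). With IGF-1 Mitf was at -0.21 (SE 0.099) in IRKO cells and fell in IRflox cells, at -0.47 (SE 0.103) (edgeR adjusted p = 0.0688 and 0.000196). Tfeb and Tfe3 did not pass with IGF-1 in either genotype. Transcript levels do not show where these factors are in the cell.

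Other lysosomal genes outside the set were counted by the same classes. Over the comparisons with vehicle, 21.4% to 25.1% of all genes were called lower and 24.3% to 26.9% higher. Of 23 other enzymes and lumenal proteins, 15 fell with insulin and 16 with IGF-1 in IRKO cells, 13 and 12 fell in IRflox cells, and none rose. In IRflox cells given insulin Scpep1 changed by -0.56, Plbd2 by -0.40 and the asparagine endopeptidase gene Lgmn by -0.39. Of 24 other membrane proteins, 9 fell and 5 rose with insulin in each genotype, and with IGF-1 11 fell and 7 rose in IRKO cells and 9 fell and 4 rose in IRflox cells. Slc17a5, the sialic acid exporter gene, had 13.1, 9.98, 12.4 and 11.7 CPM with insulin and 10.9, 10.5, 10.2 and 9.80 CPM with IGF-1 in IRKO cells, against 30.2, 27.7, 30.4 and 30.6 CPM with vehicle. IRflox cells had 11.5, 8.47, 13.3 and 9.38 CPM with insulin and 10.4, 9.81, 11.4 and 9.89 CPM with IGF-1, against 27.3, 27.2, 28.9 and 26.4 CPM with vehicle, a difference of -1.37 (SE 0.091) for insulin (edgeR adjusted p = 4.04e-16). All ligand libraries were below all vehicle libraries, and the fall was larger than that of any of the 51 genes. Slc38a9, the arginine sensor gene, changed by -0.72, Mfsd1 by -0.39 and the cholesterol exporter gene Npc1 by -0.34 with insulin in IRflox cells.

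Of 19 other V-ATPase subunits and assembly factors 15 passed the filter, of which 4 fell and 3 rose with insulin and 4 fell and 5 rose with IGF-1 in IRKO cells, and 5 fell and 2 rose with insulin and 6 fell and 5 rose with IGF-1 in IRflox cells. Of all genes, 21.7% fell and 24.7% rose with insulin and 25.1% fell and 26.9% rose with IGF-1 in IRKO cells. In IRflox cells these shares were 21.4% and 24.3% with insulin and 24.4% and 26.4% with IGF-1. With insulin in IRflox cells Oxr1 changed by -0.32, Meak7 by -0.26, Wdr7 by -0.19 and Atp6v0e2 by 0.13. Of 10 genes of enzyme sorting and activation, 5 fell and 1 rose with insulin and 7 fell and 1 rose with IGF-1 in IRKO cells, and 6 fell and 2 rose with insulin and 6 fell and 1 rose with IGF-1 in IRflox cells. Among them were Sort1 and Igf2r, genes of sorting receptors for these enzymes, at -0.33 and -0.27 with insulin in IRflox cells, Sumf1, which activates sulfatases, at -0.29, and Gga3, an adaptor gene, at 0.24. Of 4 genes listed as cysteine protease inhibitors, Serpinb6a, a gene of the serpin family, which acts mainly on serine proteases, fell in each comparison with vehicle, at -0.18 (SE 0.048) with insulin in IRflox cells (edgeR adjusted p = 0.00211), and none of the 4 rose. Cst3, the gene of the secreted inhibitor cystatin C, was called in none of the comparisons with vehicle.

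Some markers of other cells moved with the ligands too. Oligodendrocyte lineage markers summed to 372 to 379.2 CPM with insulin and 402.5 to 435.3 CPM with IGF-1 in IRKO cells, against 265.1 to 282.2 CPM with vehicle. IRflox cells had 320.6 to 356.9 CPM with insulin and 363.7 to 393.5 CPM with IGF-1, against 243.8 to 266.7 CPM with vehicle, so this sum was higher with each ligand without overlap. Olig1 and Olig2, transcription factor genes of that lineage, rose in all 4 comparisons, with log2 differences from 0.54 (Olig2, insulin, IRKO) to 0.84 (Olig2, IGF-1, IRflox). Pdgfra rose with insulin in IRflox cells (0.18) and with IGF-1 in IRKO cells (0.194). Others went the other way: Mbp fell in all 4, from -0.333 (insulin, IRKO) to -0.565 (IGF-1, IRflox). Cspg4 fell with IGF-1, at -0.214 in IRKO and -0.438 in IRflox cells. Sox10, Mog and Cldn11 of the same list did not pass the filter on low counts. Neuron markers summed to 81.5 to 91.3 CPM with insulin and 89.8 to 97.6 CPM with IGF-1 in IRKO cells, against 71.2 to 79.9 CPM with vehicle. In IRflox cells this sum was 98.3 to 106.4 CPM with insulin and 102.1 to 113.5 CPM with IGF-1, against 80.4 to 90.3 CPM with vehicle, again without overlap. The genes in it did not move together. Stmn2 rose in all 4 comparisons (log2 differences 0.312 to 0.466) and Gad2 with insulin in IRflox cells (1.06). Gad1 fell with insulin in IRKO (-0.42) and IRflox cells (-0.254), and Syt1 fell in IRKO cells with insulin (-0.79) and IGF-1 (-0.704). The part of cells with these markers in the falls of the lysosomal genes was not tested. With insulin in IRflox cells 5 rose and 3 fell of 12 tested astrocyte markers, 3 and 1 of 7 oligodendrocyte lineage markers, 2 and 1 of 5 neuron markers, 1 and 1 of 9 fibroblast and mural markers, and 0 and 0 of 4 endothelial markers (edgeR). Of all genes 24.3% rose and 21.4% fell in that comparison, so counts from lists this short say little about a cell type.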

How the data were processed

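The authors deposited unnormalized read counts for every gene in separate files for the libraries, as their values show. Tools listed in the submitters' processing notes are R 4.0.4, STAR 2.7.7a, DESeq2 and edgeR, with mm10 as the build. Which counter and annotation were used is not given in the sources. Each file ends in 3 lines without a gene, which were dropped, and 14.5 to 23.2% of reads lay outside genes. Libraries were poly-A and read without strand, per the labels, so overlapping genes cannot be separated. Replicates differed by more than sampling noise (chi-square per gene 2.17 to 6.86).

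Counts were filtered (filterByExpr, minimum count 10, minimum total 15), scaled by TMM (factors 0.982 to 1.018) and fitted with edgeR 4.0.16 in R 4.3.3, with 1 mean per group over all 24 libraries (biological coefficient of variation 4.9%, 11 comparisons). CPM uses TMM sizes, and log2 differences are as fitted by edgeR at its default settings. The log2 CPM behind the microglia score and the correlations of same-numbered libraries had a prior count of 2. Gene positions and exon lengths are from GENCODE M21 (GRCm38). The fit was tested on simulated data. Alternatives were DESeq2 1.42.0, other scalings and filters, only the groups compared, a replicate block, a microglia score and each library left out. Same-numbered libraries of different groups did not deviate together. Members and lists were chosen with earlier results of these data known. Values in every library are given for the members with the lowest p per class with insulin in IRflox cells, those called the other way, and those called between genotypes or ligands, and other lists are shown by their lowest p.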

Additional observations from a re-analysis of the deposited data

Results flagged for a closer look

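Among 306 sets of 4 libraries (51 genes in 6 groups), 6 held a library whose gap to its nearest neighbour exceeded Dixon's 95% critical value for 4 samples, where chance gives about 1 set in 20. Man2b1 was 79.3 CPM in IRKO IGF-1 replicate 1, with 75.6 to 75.9 CPM in the other libraries of the group. Ctns was 19.7 CPM in IRKO IGF-1 replicate 2, with 16.1 to 16.2 CPM in the others. Atp6v0a1 was 94.9 CPM in IRKO IGF-1 replicate 4, with 104.7 to 106.6 CPM in the others. Atp6v1c1 was 79.7 CPM in IRKO vehicle replicate 3, with 74.9 to 75.7 CPM in the others. Fuca1, the alpha-fucosidase gene, was 118.9 CPM in IRflox vehicle replicate 3, with 109.2 to 110.4 CPM in the others. Atp6v0b was 146.1 CPM in IRflox IGF-1 replicate 2, with 135.2 to 136.5 CPM in the others. The falls of Man2b1, Ctns and Atp6v1c1 remained called without the library concerned. Without IRflox vehicle replicate 3 the fall of Fuca1 with insulin in IRflox cells was lost (edgeR adjusted p = 0.116).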

How the results depend on the processing

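The falls of Ctns, Mcoln1, Clcn7, Naglu, Ctsf and Atp6v1b2 with both ligands in both genotypes were called in the fits with DESeq2, RLE scaling, library size alone, a mean CPM of at least 1, no filter, only the groups compared, a replicate block and each library left out. With the microglia score as a covariate, Naglu was called with IGF-1 in IRflox cells and not in the other 3 comparisons, and Mcoln1 was not called in IRKO cells with either ligand. Among the differences of 51 genes in 11 comparisons, DESeq2 changed 6 calls, RLE scaling 8, library size alone 13, a mean CPM of at least 1 9, no filter 15 and only the groups compared 10, none in sign. With the replicate block 2 calls were gained and 2 lost, and members lower in IRKO than in IRflox cells given IGF-1 were 2 in place of 1. The numbers did not pair the libraries, with none of 52 correlations above 0.1.

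With the microglia score, members lower and higher were 7 and 0 with insulin and 9 and 1 with IGF-1 in IRKO cells, 14 and 0 with insulin in IRflox cells, and 0 and 0 between genotypes under each treatment. In that fit Ctsz was 0.035 with insulin and 0.002 with IGF-1 in IRKO cells, and Ctsd -0.025 and Manba -0.029 in IRKO against IRflox cells under vehicle, each reversed, and none was called. The cause was not tested. With library size alone, members higher with IGF-1 were 0 in IRKO and 2 in IRflox cells, 0 were lower with insulin than with IGF-1 in IRKO cells, and 1 was lower in IRKO than in IRflox cells given insulin. A mean CPM of at least 1 left 2 higher with IGF-1 in IRflox cells, and no filter 1 higher with IGF-1 in IRKO cells. No filter and only the groups compared both left 1 lower and 4 higher in IRKO than in IRflox cells given insulin.

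Leaving out each library gave 35 to 38 members lower and 1 to 1 higher with insulin and 38 to 39 lower and 0 to 2 higher with IGF-1 in IRKO cells, and 29 to 34 lower and 1 to 3 higher with insulin and 31 to 35 lower and 1 to 4 higher with IGF-1 in IRflox cells. For insulin against IGF-1 it gave 0 to 1 lower and 0 to 1 higher in IRKO cells and 0 to 0 lower and 0 to 1 higher in IRflox cells. In IRKO against IRflox cells, 1 to 1 were lower and 4 to 6 higher under vehicle, 1 to 3 lower and 3 to 6 higher given insulin, and 0 to 1 lower and 0 to 3 higher given IGF-1. The lowest counts of rises came without IRKO IGF-1 replicates 1, 2 or 3 (0, IGF-1 in IRKO cells), IRflox vehicle replicate 2 (1, insulin in IRflox cells) and IRflox vehicle replicate 1 (1, IGF-1 in IRflox cells). Differences under about 0.1 on the log2 scale, of the size of 2 standard errors at this depth, were mostly not called.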
